A study of Sus scrofa with 23 samples.

Results

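The 37 genes of the pig mitochondrial genome were followed in prefrontal cortex after a single dose of psilocybin or of saline. The genes are all rows of the deposited table that lie on the mitochondrial chromosome, which are 37 of 25880 genes. The rule uses the chromosome of a row and no measured value. They comprise 13 mRNA genes, 2 rRNA genes and 22 tRNA genes. Psilocybin is a tryptamine whose metabolite psilocin activates serotonin receptors, among them the 5-HT2A receptor. All animals were adolescent female Danish slaughter pigs of 20 kg that received 1 intravenous injection while awake, and each gave 1 poly-A selected RNA library. The groups were psilocybin at 0.08 mg/kg with death 1 week later (6 animals), saline with death 1 week later (6 animals), psilocybin at 0.08 mg/kg with death 1 day later (6 animals) and saline with death 1 day later (5 animals). The series states 6 animals per group, and the 23 libraries analysed here hold 5 for saline at 1 day. Every animal was killed with an overdose of pentobarbital, and no strain allele or transgene is given.

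Mitochondria keep a small circular genome that is transcribed from both strands into long precursors, and the tRNAs that lie between the other genes mark many of the places where these precursors are cut. Its mRNAs encode core subunits of respiratory complexes I, III and IV and of the ATP synthase (complex V), while all other subunits come from nuclear genes. Its rRNAs and tRNAs serve the ribosomes of the organelle itself, and in cortex the respiratory chain supplies most of the ATP that neurons spend on ion pumping and synaptic transmission.

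Assigned counts per library ranged from 9504421 to 18654626. The labels divide the animals into 2 batches, and they say nothing more of what a batch was. Batch 2 and batch 1 each held 3 animals of every group of 6, while saline at 1 day had 3 animals in batch 2 and 2 in batch 1. Animals are numbered here within each group. The first principal component of all genes held 21.3% of the variance after batch was removed. The 3 libraries with the largest absolute scores on it are called here the 3 that stood apart. They were psilocybin 1 week animal 6 (28.34), saline 1 week animal 1 (37.75) and saline 1 day animal 5 (40.06). Their number was fixed at 3 and no gap was required, and psilocybin 1 week animal 3 came next at -21.52. Of the 7 markers of cortical neurons, CAMK2A averaged 3686 ± 438 CPM and SNAP25 averaged 2721 ± 393 CPM (SD, n = 23). CPM are counts of a gene relative to the scaled total of its library, as edgeR's cpm function gives them. The summed levels of the 3 of 6 matched markers of choroid plexus and ependyma had group means of 2.3 to 5.87 CPM. The 3 cerebellar markers summed to 18.8 to 22.1 CPM, of which PAX6 made up most and the granule cell marker GABRA6 averaged 0.321 CPM. The 4 striatal markers summed to 55.3 to 56.8 CPM, mostly PPP1R1B and DRD1, with DRD2 at 0.302 CPM on average. The 5 of 6 matched oligodendrocyte markers were high and uneven. They summed to 6425 to 9260 CPM in psilocybin 1 week animals and 5027 to 13422 CPM in saline 1 week animals. At 1 day the sums were 6004 to 12381 CPM after psilocybin and 3466 to 22267 CPM after saline, the widest range. In such bulk tissue, fewer cells of a type and less RNA per cell cannot be told apart.

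Mitochondrial genes took 12.1% ± 2.21 of all assigned counts (SD, n = 23), of which the mRNAs took 10.2% ± 1.88 and the rRNAs 1.76% ± 0.527. Of the mitochondrial mRNA counts, the 3 subunits of complex IV held 48.4% ± 1.52, the 7 subunits of complex I held 26% ± 1.49, the 2 subunits of complex V held 18.9% ± 0.502, and cytochrome b, the 1 subunit of complex III, held 6.7% ± 0.339 (SD, n = 23). These proportions differed little among the groups. Complex IV held 48.5% ± 1.81 in psilocybin 1 week animals, 48.4% ± 1.49 in saline 1 week animals, 48.2% ± 0.87 in psilocybin 1 day animals (SD, n = 6 each) and 48.8% ± 2.16 in saline 1 day animals (SD, n = 5).

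Levels of different genes were compared per length, as counts per kilobase of the row in percent of the summed counts per kilobase of the 13 mRNAs. ATP6 (subunit a of the ATP synthase, M:9120-9800 on the plus strand of susScr11) had the highest level, at 22.4%, and was above every other mRNA in 23 of 23 libraries. Next came the catalytic core subunits of cytochrome c oxidase, with 15.3% for COX3 (M:9800-10583), 14.9% for COX1 (M:6511-8055) and 11.0% for COX2 (M:8203-8890). COX3 was above COX1 in 17 of 23 libraries, so their order varied between animals, while COX1 was above COX2 in 23 of 23.

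The subunits of NADH dehydrogenase (complex I) lay lower, from 5.4% for ND4 through 4.35% for ND2, 3.61% for ND6, 3.48% for ND4L, 3.08% for ND3 and 2.66% for ND5 to 2.1% for ND1 (M:3922-4876), the lowest mRNA. CYTB, the cytochrome b of complex III (M:15342-16481), had 5.16% and ATP8, a small membrane subunit of the ATP synthase (M:8959-9162), had 6.52%. Neighbours in this order were not always separated. ND4 was above CYTB in 18 of 23 libraries, ND2 above ND6 in 22 and ND6 above ND4L in 15. ND4L was above ND3 in 19, ND3 above ND5 in 19 and ND5 above ND1 in 21. Among 681 bases of ATP6 and 204 of ATP8, 43 are shared, and ND4L (M:11069-11365) shares 7 with ND4 (M:11359-12736). Reads over shared bases were divided between both rows by the authors' counting, and each pair is carried by 1 bicistronic mRNA in human cells. The same counting divided any read that reached over several rows, so counts of short rows can hold many parts of reads shared with neighbours. How far this moved the levels per length was not tested. With shared bases left out of the lengths but the counts unchanged, ATP6 had 23.1% and ATP8 had 7.98%. Counts over the shared bases stayed in, so these are not corrected levels.

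ND6 (M:14739-15266) is the only mRNA gene on the minus strand, and it encodes a membrane subunit of complex I. It held 2.17% ± 0.238 of the mitochondrial mRNA counts (SD, n = 23), from 1.54% in saline 1 day animal 5 to 2.54% in saline 1 day animal 1. Its counts cannot be told from those of antisense RNA, because the authors counted without regard to strand, and 17 of its bases are shared with ND5 (M:12935-14755).

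**Figure D1:**
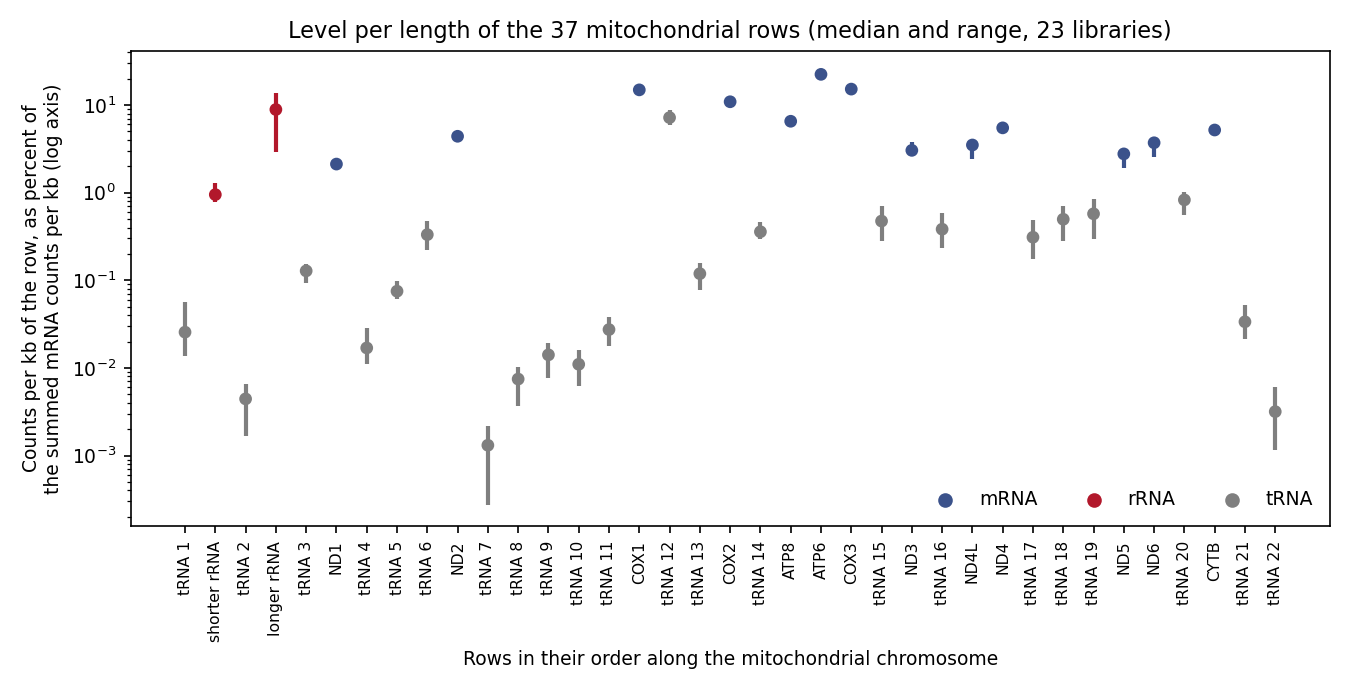
Level per length of the 37 mitochondrial rows in their order along the chromosome, on a log axis, as percent of the summed mRNA counts per kilobase; points are medians and lines run from the lowest to the highest of 23 libraries. ATP6 is highest, the longer rRNA spans the widest range of the rRNAs and mRNAs, and tRNA 12, which lies just after COX1, is the only tRNA at the level of the mRNAs.

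The longer of the 2 rRNA rows (M:2274-3844, an RNA of the mitochondrial ribosome) had 9.01% ± 2.17 on the same per-length scale, against 1.0% ± 0.153 for the shorter (M:1246-2205; SD, n = 23). Both are levels in libraries selected for poly-A tails, not in total RNA. Relative to the mRNAs of the same library, the longer rRNA had 18.3 ± 2.72 counts per 100 mRNA counts in psilocybin 1 week animals, 16 ± 1.89 in saline 1 week animals, 14.6 ± 2.63 in psilocybin 1 day animals (SD, n = 6 each) and 15.3 ± 6.85 in saline 1 day animals (SD, n = 5). The wide spread in the last group came from both of its ends, with 24.5 in animal 1 and 5.24 in animal 5. No other library of the 23 was under 12.1.

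The 22 tRNA rows, adaptors of mitochondrial translation, together took 0.0935% of assigned counts. One of them stood at the level of the mRNAs: the tRNA row at M:8059-8129, on the minus strand and 3 bases after the end of COX1, had 7.22% ± 0.743 on the per-length scale (SD, n = 23). Its level was 55.5% of the mean level of its 2 neighbours COX1 and COX2 (47.9% to 64.8% over libraries), whereas the tRNA at M:8135-8202, between the same neighbours but on the plus strand, had 0.924% of that mean. The next highest were the tRNA at M:15267-15335 between ND6 and CYTB, with 19.1% of its neighbours, and the tRNA at M:12865-12934 between ND4 and ND5, with 14.0%. Strand was not used in counting, so a minus-strand tRNA and plus-strand RNA that runs past COX1 cannot be told apart. Reads that reached from a tRNA row into its neighbours were divided between the rows, so tRNA levels can hold parts of such reads. As for the rRNAs, all tRNA levels here are levels in libraries selected for poly-A tails, not in total RNA. Of the 22 tRNA rows, 4 had too few counts to be tested (medians of 3.58, 1.4, 7.0 and 3.33 counts for those starting at 2206, 6129, 6203 and 16550), which left 33 of the 37 genes, namely 13 mRNAs, 2 rRNAs and 18 tRNAs.

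The mRNAs moved together from animal to animal. Psilocybin 1 day animal 4 had the lowest CPM of all 23 libraries in 13 of 13 mRNAs, and saline 1 day animal 5 had the highest in 10 of 13. Within their own groups, psilocybin 1 week animal 1 was highest and saline 1 week animal 5 was lowest in 13 of 13. After group and batch were removed, the residual SD of single mRNAs was 0.278 to 0.344 on the log2 scale, with a median of 0.303, against a median of 0.225 over all genes tested.

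Saline 1 day animal 5 combined extremes in opposite directions. As log2 differences from the mean of all libraries, its mitochondrial mRNAs averaged 0.501, its nuclear-encoded respiratory chain genes 0.582 and its cytosolic ribosomal protein genes 0.892, while its longer rRNA lay at -0.987. Psilocybin 1 day animal 4 was low in all of these, at -0.744, -0.324, -0.524 and -1.128. The part of such differences in RNA quality or tissue makeup in any result below was not tested.

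**Figure D2:**
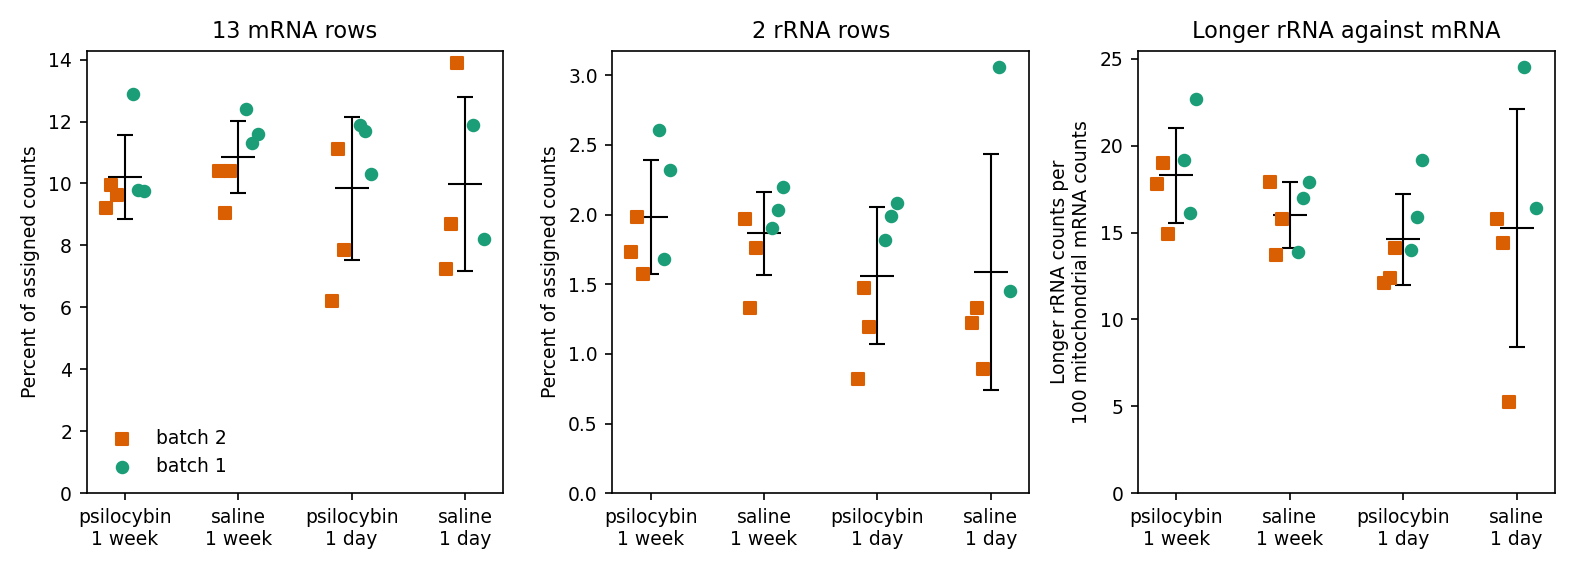
Share of assigned counts in the 13 mRNAs (left) and the 2 rRNAs (middle), and counts of the longer rRNA per 100 mitochondrial mRNA counts (right), for each animal by group; squares are batch 2, circles batch 1, and black marks give the mean and SD of the group (n = 6, and 5 for saline at 1 day). The 4 groups overlap in every panel, and saline at 1 day has the widest spread.

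The first question of the design is whether psilocybin changed expression, and at 1 week it was answered by 6 animals against 6. Mitochondrial genes took 12.3% ± 1.7 of counts in psilocybin animals (lowest 11.0%, median 11.8%, highest 15.6%) and 12.8% ± 1.43 in saline animals (lowest 10.4%, median 12.9%, highest 14.4%; SD, n = 6 each). The groups overlapped over most of their range.

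ND1, a core subunit of complex I, had the smallest p of all members at 1 week. It had 1939, 2189 and 2676 CPM (lowest, median, highest) in psilocybin animals, against 2110, 2542 and 2987 CPM in saline animals. Within batch 2 it had 1939, 2066 and 2323 CPM after psilocybin and 2110, 2209 and 2431 CPM after saline, and within batch 1 it had 2166, 2212 and 2676 CPM after psilocybin and 2653, 2711 and 2987 CPM after saline. Values after psilocybin lay mostly toward the low side of those after saline, and the groups overlapped in both batches. The log2 fold change was -0.17 ± 0.15 (SE, 95% confidence interval -0.48 to 0.14; edgeR quasi-likelihood test, adjusted p = 1.0).

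CYTB came second by p, with 6146, 6447 and 7574 CPM in psilocybin animals, against 6199, 7371 and 9096 CPM in saline animals, and a log2 fold change of -0.17 ± 0.16 (SE; edgeR, adjusted p = 1.0). ND6 had 1780.0, 2154 and 2912 CPM in psilocybin animals, against 1718, 2520 and 2830 CPM in saline animals. Both genes had a lower median after psilocybin, within ranges that overlapped.

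ATP8 had the largest p among the mRNAs at 1 week, with 1370, 1523 and 2005 CPM in psilocybin animals, against 1349, 1615 and 1919 CPM in saline animals. ATP6, which overlaps it, had 15227, 16889 and 22853 CPM in psilocybin animals, against 15029.7, 18421 and 24043 CPM in saline animals. The highest psilocybin value of both came from animal 1. ND4L had 1118, 1158 and 1481 CPM after psilocybin, against 1069.5, 1278 and 1539 CPM after saline, and its partner ND4 had 7697, 8269 and 10942 CPM after psilocybin, against 7567, 9666 and 10211 CPM after saline. Group ranges overlapped for all 4.

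Across the mRNAs at 1 week, 13 of 13 fold changes were below 0, against 51.2% of the 15049 genes tested. Their median was -0.12 on the log2 scale, against -0.0032 over all genes, and they ran from -0.17 to -0.06. The 95% intervals of single mRNAs reached from -0.50 at the lowest to 0.30 at the highest. None passed: edgeR called 0 of 33 members and 0% of all genes at an adjusted p under 0.05, and 0 of 33 members against 1.99% of all genes had an unadjusted p under 0.05. DESeq2 and limma-voom also called 0 members, with 0 at an unadjusted p under 0.05 in each. Since the mRNAs move together from animal to animal, 13 genes of the same sign are not 13 independent observations. The sign was mixed among the rRNAs and tRNAs. The longer rRNA was at 0.08 and the shorter at -0.14, and 11 of 18 tRNAs were below 0, with a median of -0.02.

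**Figure D3:**
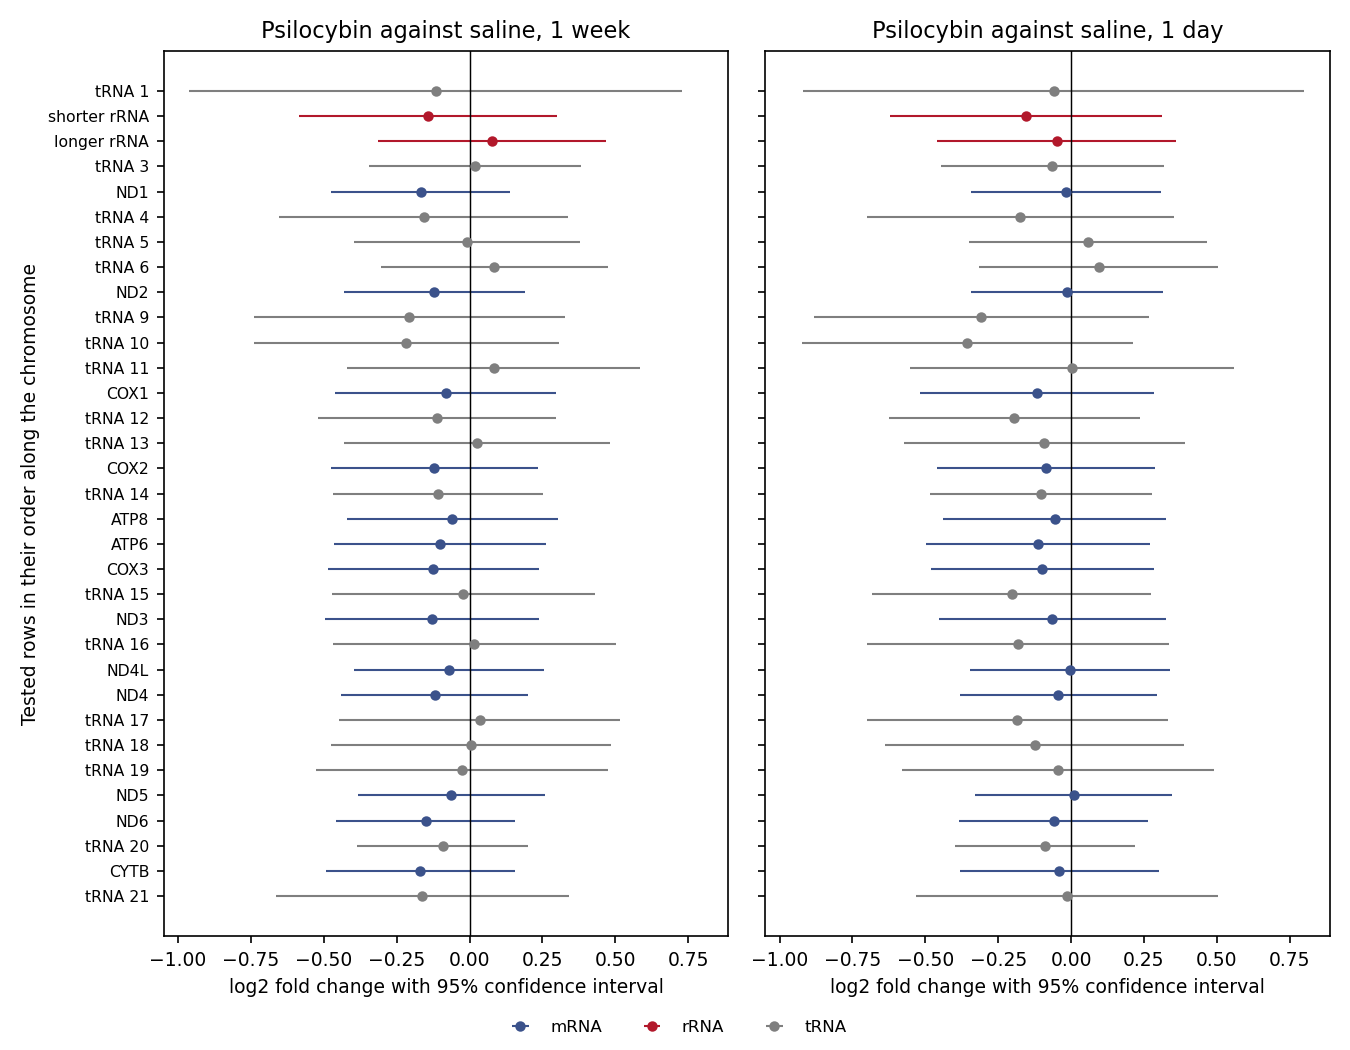
Log2 fold changes of the 33 tested mitochondrial genes for psilocybin against saline, at 1 week (left) and 1 day (right), with 95% confidence intervals, in their order along the chromosome and coloured by type. All intervals include 0 in both panels.

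At 1 day, 6 psilocybin animals were compared with 5 saline animals. Mitochondrial genes took 11.5% ± 2.77 of counts in psilocybin animals (SD, n = 6; lowest 7.08%, median 12.6%, highest 13.8%), against 15.1%, 9.73%, 8.52%, 10.1% and 14.9% in saline animals 1 to 5 (mean 11.7% ± 3.1, SD, n = 5). Saline animals fell at both ends, so that the psilocybin median lay between 3 low and 2 high saline values.

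ATP6 had the smallest p among the mRNAs at 1 day, with 10474, 18398 and 22545 CPM (lowest, median, highest) in psilocybin animals, against 21500, 13986, 11712, 14241 and 27798 CPM in saline animals 1 to 5. ATP8 had 938.2, 1611 and 1949.8 CPM in psilocybin animals, against 1770.2, 1118, 1051, 1242 and 2409 CPM in saline animals 1 to 5. Both show the same 2 saline animals above the others. ND1 had 1419.9, 2500.3 and 2953 CPM in psilocybin animals, against 2606, 1861, 1730.3, 1913 and 3279 CPM in saline animals 1 to 5. CYTB had 4364, 6968 and 8466 CPM in psilocybin animals, against 8108, 5209, 4581, 5781 and 9925 CPM in saline animals 1 to 5.

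ND4L had the largest p among the mRNAs at 1 day, with 750.9, 1275 and 1409.7 CPM in psilocybin animals, against 1418, 796.9, 858.5, 1097 and 1545 CPM in saline animals 1 to 5. ND4 had 5179, 9113 and 10407 CPM in psilocybin animals, against 10402.5, 6314, 5942, 7476 and 11638 CPM in saline animals 1 to 5. ND6 had 1148, 2319 and 2550.0 CPM in psilocybin animals, against 3079.6, 1623, 1534, 1996 and 2323 CPM in saline animals 1 to 5. The psilocybin range lay inside the saline range on its upper side for all 3 genes and reached below it on the lower side, through animal 4.

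The members with the smallest p at 1 day were 2 minus-strand tRNAs of low count. The tRNA at M:6379-6444 averaged 0.695 ± 0.244 CPM in psilocybin animals (SD, n = 6) and 0.862 ± 0.339 CPM in saline animals (SD, n = 5), with a log2 fold change of -0.36 ± 0.28 (SE; edgeR, adjusted p = 1.0). For the tRNA at M:6272-6346 the means were 1.04 ± 0.43 CPM in psilocybin animals (SD, n = 6) and 1.21 ± 0.484 CPM in saline animals (SD, n = 5), and the log2 fold change was -0.31 ± 0.28 (SE; edgeR, adjusted p = 1.0). These levels correspond to medians of 9.98 and 14.1 counts per library, the lowest depth of any members tested.

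Of the mRNAs, 12 of 13 had a fold change below 0 at 1 day, against 48.6% of all genes, with a median of -0.06 on the log2 scale and a range from -0.12 (COX1) to 0.01 (ND5). The direction rested on single animals. Without saline 1 day animal 5 the median was 0.17, without psilocybin 1 day animal 4 it was 0.05, and without psilocybin 1 day animal 6 it was 0.01. It was -0.29 in batch 2 alone and 0.22 in batch 1 alone, so the sign at 1 day depended on which animals were used. EdgeR called 0 of 33 members and 0% of all genes, with 0 members and 2.83% of all genes at an unadjusted p under 0.05. DESeq2 and limma-voom called 0 members, with 0 at an unadjusted p under 0.05 in each. In no member did the groups fail to overlap, against 0.0465% of all genes at 1 week and 0.126% at 1 day.

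**Figure D4:**
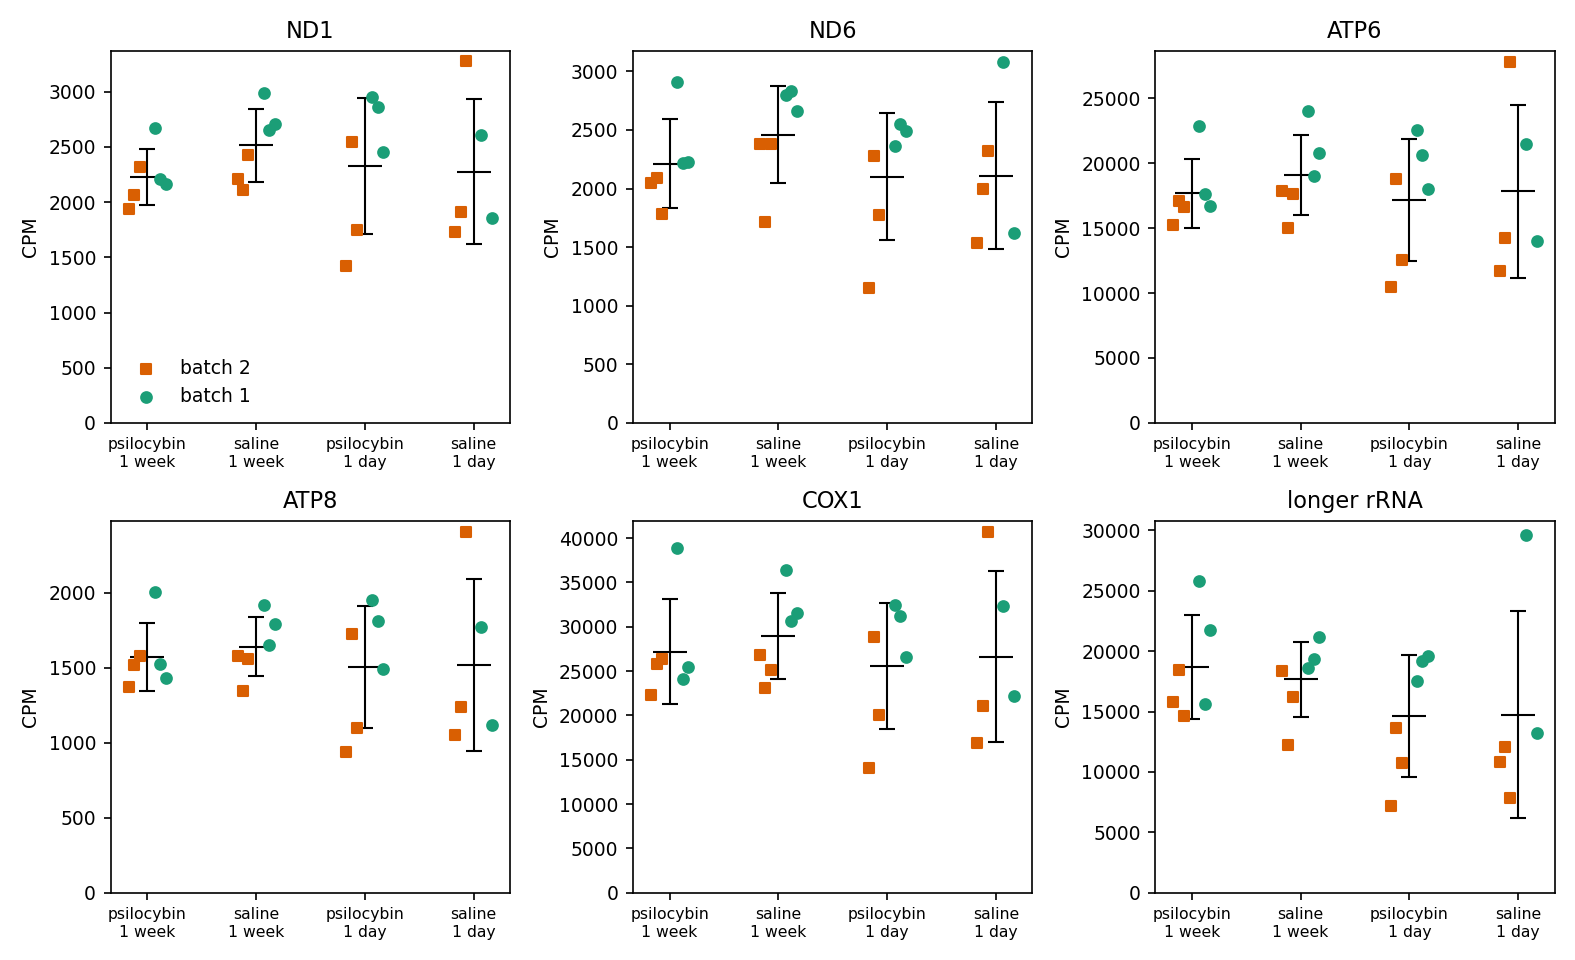
CPM of ND1, ND6, ATP6, ATP8, COX1 and the longer rRNA in each animal by group; squares are batch 2, circles batch 1, and black marks give the mean and SD of the group (n = 6, and 5 for saline at 1 day). In the 5 mRNAs shown the groups overlap and saline 1 day animals reach both low and high values, and in the longer rRNA all batch 2 animals lie below the batch 1 median of 19356 CPM.

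The difference between the psilocybin effects at 1 week and at 1 day was tested as an interaction. For ND1 it was -0.15 ± 0.22 (SE, log2; edgeR, adjusted p = 1.0), and for the tRNA at M:12737-12805 it was 0.22 ± 0.34 (SE, log2; edgeR, adjusted p = 1.0). These were the 2 smallest p-values. The median over the mRNAs was -0.07, with 11 of 13 below 0, against 49.7% of all genes. Its sign also depended on the animals used, at 0.21 in batch 2 alone, -0.40 in batch 1 alone, 0.07 without saline 1 day animal 2, 0.0005 without saline 1 day animal 3 and 0.02 without psilocybin 1 day animal 5. EdgeR called 0 of 33 members and 0% of all genes, with 0 members and 2.02% of all genes at an unadjusted p under 0.05, and DESeq2 and limma-voom called 0 members, with 0 at an unadjusted p under 0.05.

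The second question of the design is the time after injection. After psilocybin, the longer rRNA had 25784, 15648, 21757, 15804, 18480 and 14645 CPM in 1 week animals 1 to 6. In 1 day animals 1 to 6 it had 17510, 19156, 19645, 7153, 13613 and 10736 CPM. In both groups the first 3 animals are of batch 1. The 3 lowest values were all from 1 day animals of batch 2, and the groups overlapped. Its log2 fold change was 0.40 ± 0.19 (SE, 95% confidence interval 0.01 to 0.80; edgeR, adjusted p = 0.999), the only member of 33 with an unadjusted p under 0.05, against 3.18% of all genes. The fold change was 0.62 in batch 2 alone and 0.16 in batch 1 alone. Second by p was the tRNA at M:12737-12805, between ND4 and ND5, with 27.7 ± 5.17 CPM in 1 week animals and 20.2 ± 8.38 CPM in 1 day animals (SD, n = 6 each) and a log2 fold change of 0.49 ± 0.24 (SE; edgeR, adjusted p = 0.999).

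After saline, the tRNA at M:12865-12934 had 50.8 ± 16.2 CPM in 1 week animals (SD, n = 6) and 37.5 ± 12.6 CPM in 1 day animals (SD, n = 5), with a log2 fold change of 0.37 ± 0.26 (SE; edgeR, adjusted p = 1.0). The longer rRNA had 12243, 18512 and 21175 CPM (lowest, median, highest) in 1 week animals, against 29640.5, 13256.5, 10863, 12056.5 and 7888 CPM in 1 day animals 1 to 5, with a log2 fold change of 0.28 ± 0.20 (SE; edgeR, adjusted p = 1.0). Saline 1 day animal 1 lay above every 1 week animal and the other 4 lay below the 1 week median.

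For 1 week against 1 day, the median of the mRNAs was 0.06 after psilocybin, with 11 of 13 above 0 against 54.3% of all genes, and 0.11 after saline, with 13 of 13 above 0 against 51.7% of all genes. Both medians changed sign with the animals used. After psilocybin the median was -0.04 without psilocybin 1 day animal 4, -0.007 without psilocybin 1 week animal 1 and -0.11 in batch 1 alone. After saline it was -0.0053 without saline 1 day animal 2 and -0.07 in batch 2 alone. EdgeR called 0 of 33 members and 0% of all genes in both comparisons, and after saline 0 members against 2.01% of all genes had an unadjusted p under 0.05. DESeq2 and limma-voom called 0 members in either, with 2 members by DESeq2 (3.49% of all genes) and 4 by limma-voom (2.99% of all genes) at an unadjusted p under 0.05 after psilocybin, and 0 by either after saline. The groups of every member overlapped, against 0.0664% of all genes without overlap after psilocybin and 0.14% after saline. The treatment and time comparisons share animals, so these 4 sets of values are not independent of each other.

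The members did differ between the batches, which are crossed with the groups. Mitochondrial genes took 11.0% ± 2.12 of counts in batch 2 (SD, n = 12) and 13.3% ± 1.68 in batch 1 (SD, n = 11). The longer rRNA had 7153, 12928 and 18480 CPM (lowest, median, highest) in batch 2, against 13256.5, 19356 and 29640.5 CPM in batch 1, and fell by 0.63 ± 0.14 on the log2 scale in batch 2 relative to batch 1 (SE; edgeR, adjusted p = 0.00166). The tRNA at M:15267-15335, on the minus strand between ND6 and CYTB, had 33.6, 61.3 and 66.8 CPM in batch 2, against 50.6, 78.5 and 95.9 CPM in batch 1, and fell by 0.44 on the log2 scale (edgeR, adjusted p = 0.0027). The medians were far apart and the ranges overlapped.

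Of the 33 members, 16 were called and all 16 were lower in batch 2, against 32.9% of all genes called and 16.8% called lower. They were both rRNAs, 12 of 18 tRNAs and 2 of 13 mRNAs. For the mRNAs this is no larger a share than the 16.8% of all genes called lower. The 2 mRNAs called were ND6, with 1148, 2022 and 2378.5 CPM in batch 2, against 1623, 2550.0 and 3080 CPM in batch 1 (fell by 0.37, edgeR, adjusted p = 0.0125), and ND3, another core subunit of complex I (fell by 0.34, adjusted p = 0.0464). All 33 fold changes were below 0, against 53.5% of all genes. The median was -0.26 for the mRNAs and -0.45 for the tRNAs, against -0.02 for all genes. The smallest difference was that of ND4L, at -0.16 on the log2 scale, which was not called. A uniform sign was not particular to the members. The cytosolic ribosomal protein genes had 31 of 31 below 0 between the batches, with a median of -0.24 and 4 called lower.

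The number called depended on single animals: it was 27 without saline 1 day animal 5, 27 without the 3 libraries that stood apart, 8 without psilocybin 1 week animal 1 and 9 without saline 1 day animal 1. The share of all genes called in the same runs was not set beside these counts. They therefore do not show that the dependence is particular to the mitochondrial genes. Within single groups the longer rRNA was lower in batch 2 in each of the 4, at -0.37, -0.33, -0.81 and -1.04 on the log2 scale for psilocybin 1 week, saline 1 week, psilocybin 1 day and saline 1 day, none of which passed. In no member did the batches fail to overlap, against 0.545% of all genes.

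Other genes moved with the batch. The 6 microglial markers were all lower in batch 2 and passed, with a summed level of 119.7 to 252.3 CPM in batch 2 and 189.8 to 302.8 CPM in batch 1. The 2 blood markers tested, HBB and ALAS2, were lower and passed, with 11.5 to 75.3 CPM in batch 2 and 21.8 to 493.0 CPM in batch 1. Of 6 astrocyte markers 4 were higher and passed, with a summed level of 3759 to 5287 CPM in batch 2 and 2659 to 6105 CPM in batch 1. The other 2, GFAP and ALDH1L1, were lower and did not pass. Of 7 cortical neuron markers, 1 was higher and passed (GAD2, 0.90 on the log2 scale). Another 2 were lower and passed (RBFOX3, -0.32, and SNAP25, -0.21). Of the oligodendrocyte and endothelial markers tested, 0 of 5 and 0 of 3 passed. Of 3 striatal markers tested, 1 passed, PPP1R1B, which was lower, and the 4 summed to 41.7 to 64.7 CPM in batch 2 and 44.7 to 68.1 CPM in batch 1. Median depth was 12022557 counts in batch 2 and 11631460 in batch 1. The part of these in the batch difference of the mitochondrial genes was not tested.

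**Figure D5:**
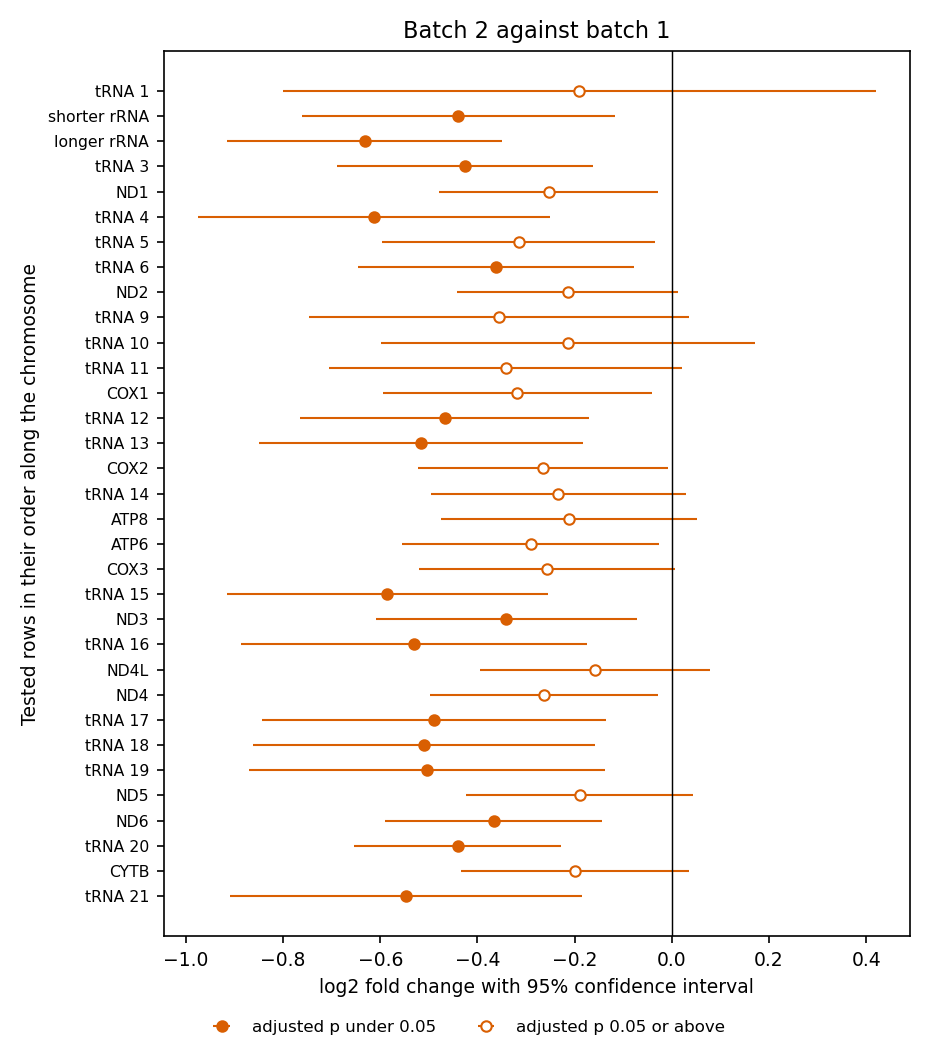
Log2 fold changes of the 33 tested mitochondrial genes for batch 2 against batch 1, with 95% confidence intervals, in their order along the chromosome; filled points have an adjusted p under 0.05 by edgeR. All 33 points lie below 0, and the 16 filled points include 2 mRNAs, ND3 and ND6.

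Nuclear genes that copy, transcribe and process the mitochondrial genome and its RNA were read beside it. Of 41 listed genes 39 were tested, and edgeR called 0 of them in each of the 5 treatment and time comparisons. At an unadjusted p under 0.05, 0 passed at 1 week (1.99% of all genes), 2 were lower at 1 day (TRMT10C and REXO2; 2.83% of all genes), 0 passed for the difference (2.02%), 0 for time after psilocybin (3.18%) and 1 was higher for time after saline (TOP1MT; 2.01%). The median log2 fold change of the list was -0.03 at 1 week and -0.05 at 1 day. TFAM, which packages mitochondrial DNA and starts its transcription, had -0.04 ± 0.07 at 1 week and -0.09 ± 0.07 at 1 day (SE, log2). POLRMT, the mitochondrial RNA polymerase, had -0.10 ± 0.07 at 1 week and 0.03 ± 0.07 at 1 day.

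The transcription elongation factor TEFM had -0.11 ± 0.16 at 1 week and 0.05 ± 0.17 at 1 day (SE, log2). LRPPRC and SLIRP, partners that stabilise mitochondrial mRNAs, had 0.07 ± 0.10 and -0.07 ± 0.22 at 1 week, and -0.07 ± 0.10 and -0.29 ± 0.23 at 1 day. PPARGC1A, a coactivator of mitochondrial biogenesis, had 0.06 ± 0.09 at 1 week and -0.06 ± 0.09 at 1 day. None of these passed.

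The smallest p-values in the list at 1 week belonged to PPARGC1B (0.26 ± 0.13), TRMT10C (-0.23 ± 0.16) and POLRMT. At 1 day they belonged to TRMT10C, a subunit of the RNase P that cuts tRNAs from mitochondrial precursors (-0.40 ± 0.16), REXO2, an oligoribonuclease (-0.28 ± 0.12), and the transcription factor TFB2M (-0.22 ± 0.12). For the difference between the effects they were MTERF1 (0.52), REXO2 (0.25) and PNPT1 (0.22). For 1 week against 1 day they were POLG2 (0.33), MTERF1 (0.31) and PPARGC1A (0.14) after psilocybin, and TOP1MT (0.56), POLG2 (0.35) and TEFM (0.22) after saline. All adjusted p-values of these were 0.999 or above.

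Between the batches 15 of the 39 passed, close to the 32.9% of all genes called. The 10 that were lower in batch 2 included the DNA helicase TWNK (fell by 0.28, edgeR, adjusted p = 0.000646), POLRMT (fell by 0.26, adjusted p = 0.000941) and ELAC2, which cuts the other end of tRNAs (fell by 0.24, adjusted p = 0.00148), and also ESRRA, FASTK, TBRG4, NRF1, TFB1M, LONP1 and HSD17B10. The 5 that were higher were LRPPRC (0.34, adjusted p = 0.00115), PDE12 (0.36), GRSF1 (0.28), PPARGC1B (0.35) and TFAM (0.15). Of the 39, 22 were below 0, against 53.5% of all genes.

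The nuclear-encoded subunits of the same complexes were also followed, and in the treatment comparison at 1 day and in time after saline their medians rested on 1 library. Of 54 tested subunits of complexes I, III, IV and V, 31 were below 0 at 1 week, with a median log2 fold change of -0.0069, which was 0.17 in batch 2 alone and -0.19 in batch 1 alone. At 1 day 51 of 54 were below 0, with a median of -0.23. Without saline 1 day animal 5, the animal that was high in these genes, 30 of 54 were below 0 at 1 day, with a median of -0.0089. For 1 week against 1 day, the median was -0.11 after saline with all animals, 0.08 without saline 1 day animal 5 and 0.01 without the 3 libraries that stood apart. After psilocybin it was 0.11 with all animals and 0.01 without those 3 libraries. These values without single libraries were computed after the data had been seen.

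EdgeR called 0 nuclear subunits in each treatment and time comparison, and 2 of 54 were lower at an unadjusted p under 0.05 at 1 day, against 2.83% of all genes in either direction. The cytosolic ribosomal protein genes had 31 of 31 members below 0 at 1 day, and 0 of 31 without saline 1 day animal 5. Between the batches 50 of 54 nuclear subunits were below 0, against 53.5% of all genes, and 24 passed, all lower in batch 2, against 16.8% of all genes called lower. Their median was -0.27 on the log2 scale, and -0.34 without the 3 libraries that stood apart.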

How the data were processed

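Poly-A selected RNA of the prefrontal cortex of 23 pigs was analysed from expected counts per gene that the authors deposited for 25880 Ensembl genes. Per the submitters' processing notes, fastp 0.20.0, STAR 2.6c, featureCounts 1.5.1 and the build susScr11 were used. Per the file headers, fragments were counted without strand, and a read over several genes was divided between them. Of the deposited expected counts 72.2% were whole at a tolerance of 0, and values were rounded for the count models, which changed no library total by more than 0.001%. Reads that match both mitochondrial genes and their nuclear copies could be placed in either, so counts of such stretches are uncertain. No pair of libraries held identical values (0 pairs).

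Members were the rows on the mitochondrial chromosome. Coordinates are those of the table, and all 37 rows matched a row of RefSeq's table for Sscrofa11.1 by position, which gave the types (mRNA, rRNA, tRNA). The tRNA and rRNA rows carry no symbol and are given by position, and tRNAs are numbered along the chromosome in the figures.

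Low genes were removed with the filterByExpr function (a minimum count of 10 and a minimum total of 15). This retained 15049 genes, 33 of them members. Differences were tested over all genes with edgeR 4.0.16 in R 4.3.3 (TMM scaling, robust quasi-likelihood F test, two-sided), in 1 model with 4 groups and batch, and Benjamini-Hochberg adjusted p-values under 0.05 were called. The fit was tested on simulated data. The simulation drew each gene independently, without a batch effect, and changed only genes outside the mitochondrial chromosome. It does not show how well small differences would be found in members that move together. CPM values use the TMM-scaled totals. Shares, levels per length and list medians are descriptions without a test. Animals differ between all groups (0 shared), so nothing was paired. Alternatives were RLE size factors, scaling over nuclear genes alone, 2 other filters, DESeq2 1.42.0, limma-voom (limma 3.58.1), a non-robust fit, no batch term, each batch alone, the compared groups alone, leaving out each animal, and leaving out the 3 libraries that stood apart. The same alternatives for the nuclear subunits were added after the data were seen.

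The members and the gene lists were chosen with earlier results of these data known. Members described in full were those with the smallest and largest p among the mRNAs, the highest and lowest level per length, ND6, the overlapping pairs ATP8/ATP6 and ND4L/ND4, and the 2 with the smallest p in each comparison. COX1 and the 12th tRNA were added for their levels after the values were seen. Of the nuclear list, 6 genes chosen by name, the 3 with the smallest p and those past the threshold were named.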

Additional observations from a re-analysis of the deposited data

Results flagged for a closer look

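Of 104 sets of values of 1 group that were checked, 16 held an animal whose gap to the next animal was large for the range of its group. Chance gives about 1 in 20 for a single set. Many sets hold mRNAs of the same animals, which move together. The 16 are therefore not independent, and their number cannot be read against that rate.

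Psilocybin 1 week animal 1 was high in 9 of them. Its mRNA share of assigned counts was 12.9%, with 9.94% in the next animal, and its tRNA share was 0.136%. It had 38858 CPM of COX1, 11461.5 CPM of COX2, 2005 CPM of ATP8, 22853 CPM of ATP6, 18779 CPM of COX3, 1481 CPM of ND4L and 10942.5 CPM of ND4. Psilocybin 1 week animal 6 had 1.41 counts of the shorter rRNA per 100 mRNA counts, with 1.05 in the next animal, and the lowest ND6 share of mRNA counts in its group, at 1.82%.

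Saline 1 week animal 1 had 1.43 counts of the shorter rRNA per 100 mRNA counts, 1913.5 CPM of the shorter rRNA and the lowest complex I share of mRNA counts in its group, at 22.9%. Saline 1 day animal 1 had an rRNA share of 3.06% of assigned counts, with 1.45% in the next animal, and 29640.5 CPM of the longer rRNA. The causes were not tested.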

How the results depend on the processing

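The count of 0 called members held under every alternative run in the 5 treatment and time comparisons. For the difference between the psilocybin effects, batch 1 alone gave a median of -0.40 for the mRNAs and -0.13 for the tRNA at M:12737-12805, and batch 2 alone gave 0.20 for ND1. For 1 week against 1 day after saline, the longer rRNA was at -0.12 in batch 1 alone. Between the batches, no filter gave 9 members called, leaving out 1 animal gave 8 to 27, leaving out the 3 libraries that stood apart gave 27, and each group alone gave 0, with 5 or 6 animals, where the saline 1 day group had a median of 0.0424 for the mRNAs. These counts are given without the share of all genes called in the same runs. Per length without shared bases, and with the counts unchanged, COX2 had 10.6%, ATP8 7.98% and ATP6 23.1%. The causes of these changes were not tested. Runs with fewer animals or another length show only that a value moved. At 1 week the median of the mRNAs stayed below 0 under every alternative, from -0.17 to -0.07. The median residual SD of the mRNAs was 0.303 (log2), and 95% intervals of single mRNAs at 1 week reached from -0.50 to 0.30. For the nuclear subunits the same alternatives were added after seeing the data: over those that left out 1 animal, the median ran from -0.28 to -0.0089 at 1 day, -0.11 to 0.08 at 1 week, and -0.20 to 0.08 for time after saline. The 4 untested tRNAs had medians of at most 7.0 counts. No paired analysis was possible because the groups hold different animals.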
